A study of Mus musculus with 4 samples.

Results

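Gpnmb-positive lipid-associated macrophages (LAMs) of the mouse liver were picked from all 4 single-cell libraries of the series by a rule on measured counts. Barcodes were kept if they showed between 500 and 6000 genes and if no more than 10% of their unique molecular identifiers (UMIs) were mitochondrial. A kept cell was selected as a LAM when it held at least 1 UMI of Gpnmb (ENSMUSG00000029816) and at least 3 UMIs of Gpnmb, Trem2 (ENSMUSG00000023992) and Mmp12 (ENSMUSG00000049723) together. It also had to hold at most 2 UMIs of the Kupffer cell (KC) genes Clec4f, Vsig4 and Timd4 and 0 UMIs of Siglech, Cd3e and Cd79a. Finally, the endothelial cell (EC) genes Pecam1, Kdr, Stab2, Clec4g, Ptprb and Cdh5 had to sum to under 0.3% of its UMIs. The rule selected 138 of 30362 kept cells, which themselves came from 44974 barcodes. Levels of these 15 genes follow from the selection and are given below as a description of it.

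The study asks what the loss of YAP and TAZ from the epithelium of the liver does to the other liver cells. A WT library came from a wild-type mouse, and in the YAPKO, TAZKO and DKO mice floxed alleles of Yap1, of Wwtr1 (the gene of TAZ) or of both were recombined by a Cre recombinase under the albumin promoter. The promoter is active in hepatocytes (HCs) and biliary epithelial cells (BECs), so that macrophages carry intact alleles in every genotype. The mice were untreated, and the labels give no age. HCs and nonparenchymal cells (NPCs) were isolated separately and then mixed, so that shares of all kept cells also depend on the mixing. Each genotype was represented by 1 mouse and 1 library. No test between genotypes was therefore possible, and the exact 95% intervals given in parentheses cover counting error only.

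The deposited matrices held 66259687 UMIs over 13657 barcodes in WT, 85989454 over 7711 in YAPKO, 49022089 over 14418 in TAZKO and 77411746 over 9188 in DKO. Kept cells numbered 7155 with a median of 4618 UMIs in WT, 6275 with 7337 in YAPKO, 8638 with 3555.5 in TAZKO and 8294 with 5952.5 in DKO. Each pair of libraries had between 9 and 26 kept barcodes in common. No LAM barcode was found among the LAMs of another library, and 1 DKO LAM had a barcode that was also kept in TAZKO.

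LAMs are macrophages that take up and store lipid and were described in fat tissue, in atherosclerotic plaques and in injured or steatotic livers. GPNMB is a transmembrane glycoprotein of lysosomes and phagosomes, TREM2 is a lipid-sensing receptor that signals through TYROBP, and MMP12 is the macrophage elastase. In the liver such cells are mostly traced to recruited monocytes, whereas KCs are the resident macrophages of the sinusoids.

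LAMs were found in the libraries with deleted alleles and mainly in YAPKO and DKO. YAPKO held 86 LAMs, or 1.37% of kept cells (1.10 to 1.69), and DKO held 45, or 0.543% (0.396 to 0.725). TAZKO held 7 (0.0810%, 0.0326 to 0.167), and WT 0 of 7155 kept cells, which allows a share of up to 0.0419%. The interval of YAPKO lay above that of DKO, and both lay above that of TAZKO. The order of YAPKO and DKO depended on the limit on KC genes, and without that limit, a count made after the values were seen, there were 89 cells in YAPKO (1.42%, 1.14 to 1.74) and 130 in DKO (1.57%, 1.31 to 1.86). Relative to KCs, which do not depend on the share of HCs, there were 14.0 LAMs per 100 KCs in YAPKO (11.1 to 17.6), 6.96 in DKO (5.02 to 9.42) and 0.658 in TAZKO (0.264 to 1.36). In WT, 0 LAMs against 644 KCs allow up to 0.466 per 100. Here KCs were kept cells with at least 6 UMIs of Clec4f, Vsig4 and Timd4 and 0 of Gpnmb, and they numbered 613 in YAPKO, 1064 in TAZKO and 647 in DKO. The order of the 3 genotypes held after all cells were thinned to 2000 UMIs, although fewer cells then met the rule: 41 in YAPKO (0.701% of kept cells, 7.09 per 100 KCs), 14 in DKO (0.186%, 2.31 per 100 KCs), 4 in TAZKO and 0 in WT.

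**Figure D1:**
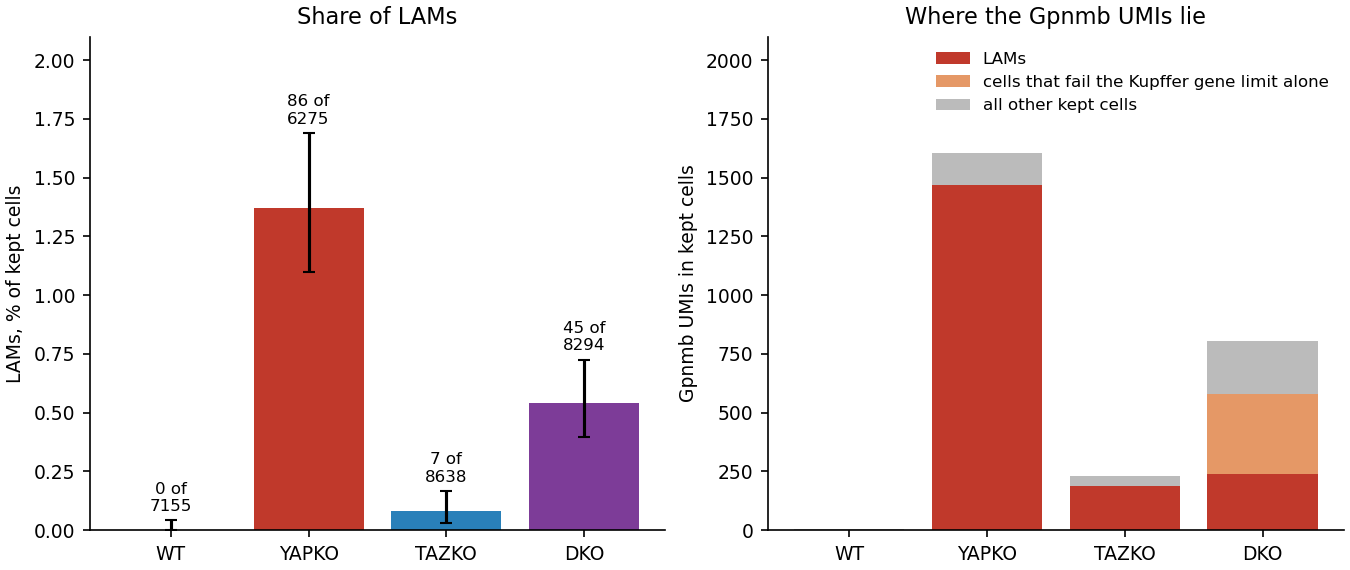
Left, LAMs as a percentage of kept cells in each library, with exact 95% intervals for counting error and, at 0 in WT, the limit of 3 cells. Right, number of Gpnmb UMIs in kept cells, stacked by LAMs, cells that failed the KC gene limit alone and all others: LAMs held 1467 of 1604 in YAPKO and 241 of 805 in DKO.

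The summed counts of Gpnmb, Trem2 and Mmp12 lay further from their limit in YAPKO than in DKO. Of the cells that passed every other limit, 77 in YAPKO and 23 in DKO held at least 10 UMIs of Gpnmb, Trem2 and Mmp12. Just inside the limit, at 3 UMIs, were 3 cells in YAPKO, 1 in TAZKO and 8 in DKO, and just outside, at 2 UMIs, 1 in YAPKO and 6 in DKO. With 2 UMIs of Clec4f, Vsig4 and Timd4, 1 cell in YAPKO and 2 in DKO were just inside, and with 3 UMIs 3 cells in DKO were just outside. In WT, 3 of all kept cells held Gpnmb, with 3 UMIs in total. In YAPKO 114 kept cells held 1604 Gpnmb UMIs, of which 1467 were in LAMs, whereas in DKO 223 cells held 805, of which 241 were in LAMs.

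Levels are given as counts per 1000000 UMIs (CPM) summed over the cells of a library. Gpnmb reached 992 CPM (942 to 1044) in YAPKO LAMs, 599.8 CPM (526 to 680.5) in DKO LAMs and 1762 CPM (1518 to 2034) in the 7 TAZKO cells. In TAZKO 1 cell held 90 of the 186 Gpnmb UMIs. Trem2 reached 1137 CPM in YAPKO and 495 CPM in DKO, with at least 1 UMI in 84 of 86 and 41 of 45 cells. In KCs, whose definition did not use Trem2, it was 26.7 CPM in WT, 52.8 in YAPKO and 80.7 in DKO. Mmp12 marked a small part of the LAMs, with a UMI in 14 of 86 YAPKO cells, 10 of 45 DKO cells and 0 of 7 TAZKO cells. Its level was 299 CPM in YAPKO, where 1 cell held 205 of its 442 UMIs, and 336 CPM in DKO, where 1 cell held 34 of 135. The label therefore rests on Gpnmb and Trem2, and 0 cells in YAPKO and 1 in DKO needed Mmp12 to reach the sum of 3.

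General macrophage genes that the rule did not use were detected in most LAMs. Cd68, a lysosomal membrane protein, and Csf1r, the receptor of macrophage colony-stimulating factor, each had a UMI in 86 of 86 YAPKO and 43 of 45 DKO cells, and Lyz2 in 86 of 86 and 44 of 45. The complement gene C1qa was found in 82 of 86 and 36 of 45. B cells, which should lack these genes, were shallower, with medians of 2874 and 2206 UMIs against 15753.5 and 7581 in LAMs, and both were therefore thinned to 2000 UMIs. Cd68 was then found in 84.9% of YAPKO and 63.6% of DKO LAMs, against 1.85% of 378 B cells in YAPKO and 3.06% of 229 in DKO. C1qa was found in 86.0% and 77.3% of thinned LAMs against 5.56% and 6.99% of thinned B cells. Trem2, a gene of the rule, was found in 80.2% and 59.1% against 0% and 0.873%, which follows in part from the selection. Of the 13 general macrophage genes, Lyz2 was higher than in KCs and Mertk and Adgre1 were lower, with medians of -0.38 in YAPKO and -0.31 in DKO on the log2 scale. Cd68, Csf1r and Lyz2 were thus present in nearly every cell in YAPKO and DKO.

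LAMs were compared with the KCs of their own library, the resident macrophages. Of 7874 genes compared, 212 (2.69%) were at least 2-fold higher in LAMs in both YAPKO and DKO, and 401 (5.09%) at least 2-fold lower in both. These counts depended on the settings. With at least 20 UMIs 403 genes were higher and 401 lower, and with at least 200 UMIs 99 and 332. Without the top cell of each gene 165 were higher and 712 lower. Without possible doublets 199 of 7059 genes (2.82%) were higher and 366 (5.18%) lower, of which 127 and 271 were among those reported. The median log2 ratio over all genes was -0.28 in YAPKO and 0.06 in DKO. Ratios of genes that differed most are given on the log2 scale, YAPKO before DKO. Spp1, which encodes the secreted glycoprotein osteopontin, ranked highest, with 1710.3 CPM (1644 to 1778) in YAPKO LAMs and 411 CPM (350.4 to 478) in DKO LAMs against 3.67 and 0.730 in KCs. This gave ratios of 8.86 (8.40 to 9.37) and 9.14 (7.88 to 10.78). A single YAPKO cell held 29.5% of the Spp1 UMIs, and the ratio was 8.35 without that cell.

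Genes of other functions stood beside Spp1 among the 15 with the largest ratios. Syngr1, a vesicle membrane protein, was at 222 and 94.6 CPM (ratios 6.84 and 6.17), and the predicted gene Gm6166 followed with 5.95 and 5.51. The fatty acid-binding protein genes Fabp5 (5.81 and 4.64) and Fabp3 (8.56 and 4.31) were both present, with Fabp3 at 36.5 and 17.4 CPM and up to 57.1% of its UMIs in 1 cell. The monocyte genes F13a1 (5.96 and 5.45) and Ly6c2 (6.12 and 4.88) also ranked there, but 1 cell held 64.8% of the Ly6c2 UMIs in YAPKO and 52.6% in DKO. Myo5a, a myosin of vesicle transport, had ratios of 5.70 and 4.68, the signalling adaptor Lat2 5.47 and 5.27, the membrane glycoprotein gene Emb 4.56 and 5.01, and Ptafr, the receptor of platelet-activating factor, 4.81 and 3.96. Cd93, a receptor in the clearance of dying cells, reached 201 and 217 CPM against 8.98 and 10.9 in KCs. The list also held Emp1 (4.42 and 3.91) and Lrrc14b, which was 5.66 (4.30 to 7.36) in YAPKO and at least 56.9-fold higher in DKO. In DKO 1 cell held 60% of the Lrrc14b UMIs.

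**Figure D2:**
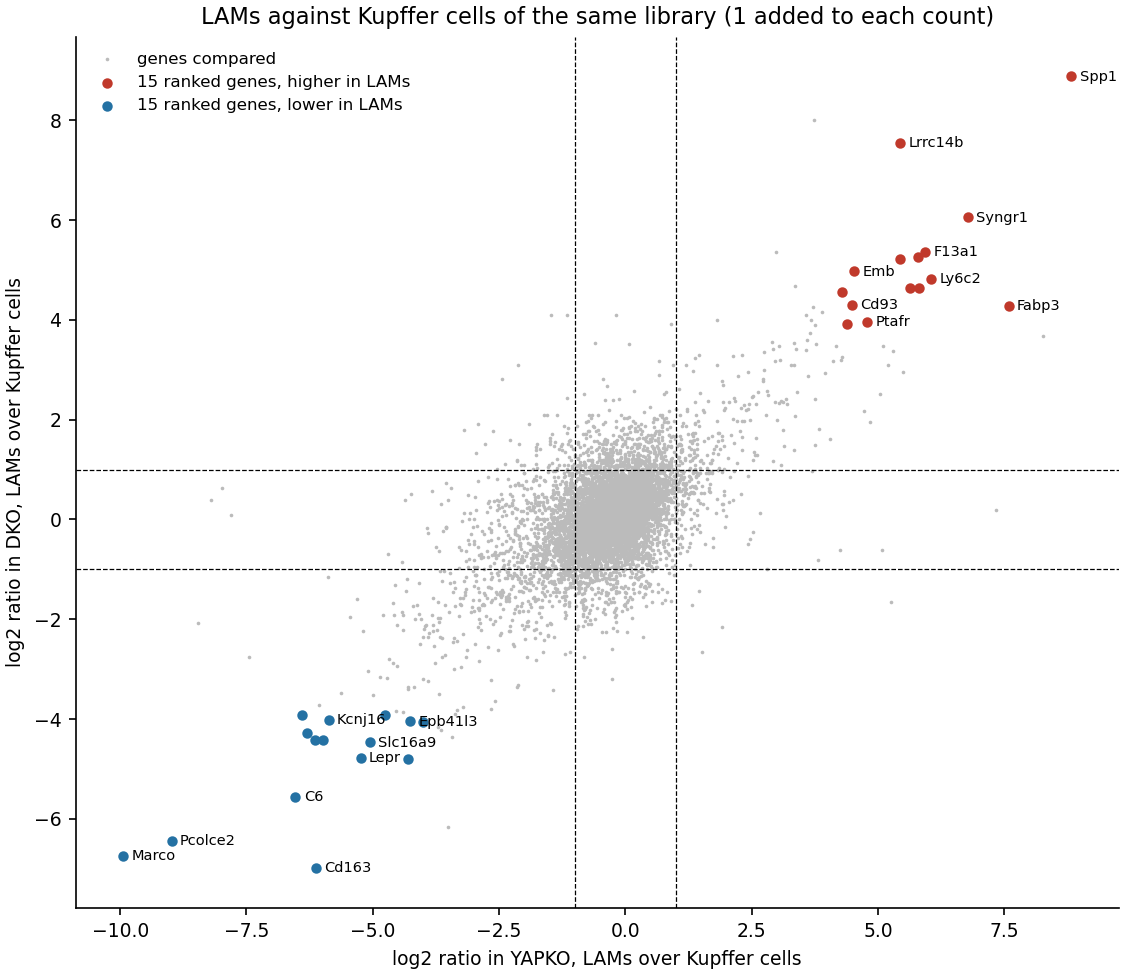
Log2 ratio of LAMs to KCs in YAPKO (horizontal) and DKO (vertical) with 1 added to each count, 1 point per compared gene, dashed lines at 2-fold and the 15 ranked genes of each direction coloured. Spp1 lies far in the upper right, and Marco and Pcolce2 far in the lower left.

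The 22 genes listed as typical of LAMs, without the rule's own markers, were for the most part above their level in KCs. Of the 21 compared, 11 were at least 2-fold higher in both libraries and 0 lower, with medians of 1.79 in YAPKO and 1.13 in DKO (1.47 with a gene at 0 set to its bound). Fabp5 reached 3465 CPM (3371 to 3561) in YAPKO and 1739.6 CPM (1613 to 1873) in DKO, against 61.9 and 69.9 CPM in KCs. Cd63, a tetraspanin of late endosomes, was at 1012 and 1063 CPM against 52.7 and 116, and Cd9, a tetraspanin of the cell surface, at 189 and 348 against 32.7 and 62.7. Lgals3, the gene of galectin-3, was at 3732 and 2484 CPM (ratios 1.79 and 1.47), and the integrin gene Itgax at 41.2 and 109.5 CPM (3.61 and 3.60). Fabp5, Cd63, Cd9, Lgals3 and Itgax were thus at least 2-fold higher in both libraries.

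Plin2, Ctsd and Apoe were at least 2-fold higher than in KCs in YAPKO LAMs but not in DKO LAMs. Plin2, which coats lipid droplets, was at 1019 CPM in YAPKO and 353 in DKO, with ratios to KCs of 1.82 (1.73 to 1.91) and 0.41 (0.15 to 0.65). The lysosomal protease gene Ctsd was at 6649 and 2613 CPM (1.55 and 0.31), and Apoe, the gene of an apolipoprotein that macrophages secrete, at 58408 and 35526 CPM (1.48 and 0.32). Lpl, the gene of lipoprotein lipase, was at 848 and 321 CPM against 790.2 and 661 in KCs, a ratio of 0.10 in YAPKO and -1.04 in DKO. Free RNA of Apoe was widespread, with a UMI in 70.4% of thinned B cells in YAPKO and 69.0% in DKO. Atp6v0d2, a subunit of the lysosomal proton pump, was at 109 CPM in YAPKO LAMs and at 0 in DKO LAMs, against 0.579 and 2.04 CPM in KCs.

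The median ratios of the lysosomal gene lists were near 0 against KCs and above 0 against monocytes. Of 28 lysosomal enzymes compared with KCs, 2 (Psap and Gla) were higher in both libraries and 1 was lower, with medians of 0.12 and 0.08. Psap, the precursor of the saposins that help degrade sphingolipids, reached 5484 and 4853 CPM against 2121 and 2274 in KCs. Gla, an enzyme that splits glycosphingolipids, was at 64.9 and 39.8 against 14.8 and 14.4. Of 19 genes of the lysosomal membrane and proton pump, 1 (Cd63) was higher and 0 lower (medians 0.33 and 0.17). Monocytes here were kept cells with at least 3 UMIs of Ly6c2, Ccr2, F13a1 and Chil3 and 1 of Csf1r, low KC genes and 0 Gpnmb. Apart from Siglech, this choice limited no dendritic cell gene, so that the group can hold dendritic cells. The monocytes numbered 296 in YAPKO and 226 in DKO. Against them, 8 of 28 enzymes were higher in both libraries, as were 2.55% of all 6119 genes compared (4.36% were lower), and the medians were 0.83 and 0.92. Of 16 genes of the lysosomal membrane and proton pump, 3 were higher than in monocytes and 0 lower (medians 0.73 and 0.89). Of the transcription factors Mitf, Tfe3, Tfeb and Tfec, which drive lysosomal genes, 0 of 4 were higher than in KCs and Tfec was lower (-1.20 and -1.63).

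The E-box TCACGTG, a sequence these factors bind, was counted on either strand of promoters from 250 bases before to 50 bases after the transcription start. It was present in 1237 of 32851 promoters (3.77%) and in at least 1 promoter of 1160 of 27025 genes (4.29%). Of the lysosomal enzymes, 7 of the 24 with a promoter in the table had a match (29.2%), among them Ctsd, Ctsa and Gla, and of the membrane genes 4 of 15 (26.7%), among them Lamp1 and Atp6v1a. Of the LAM list, 2 of 15 had a match, Ctsd and Plin2. Both genes also followed Gpnmb from cell to cell, and their promoters are therefore printed in the 5′ to 3′ direction, with matches in capitals. Ctsd lies on the minus strand of chromosome 7 (142387778 to 142388077, GRCm38.p6) and has 3 matches, at positions 6, 152 and 153, of which the last pair overlap.

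Ctsd: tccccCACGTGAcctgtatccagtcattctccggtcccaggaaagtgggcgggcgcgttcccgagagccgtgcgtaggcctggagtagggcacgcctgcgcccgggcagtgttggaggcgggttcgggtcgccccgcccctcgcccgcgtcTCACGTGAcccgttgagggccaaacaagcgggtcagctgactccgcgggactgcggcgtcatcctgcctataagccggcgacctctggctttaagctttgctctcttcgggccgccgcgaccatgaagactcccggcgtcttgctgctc

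Plin2 lies on the minus strand of chromosome 4 (86670010 to 86670309, GRCm38.p6) and has 1 match, at position 246, which is 5 bases before the start. A match is a description of the sequence, and binding was not measured.

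Plin2: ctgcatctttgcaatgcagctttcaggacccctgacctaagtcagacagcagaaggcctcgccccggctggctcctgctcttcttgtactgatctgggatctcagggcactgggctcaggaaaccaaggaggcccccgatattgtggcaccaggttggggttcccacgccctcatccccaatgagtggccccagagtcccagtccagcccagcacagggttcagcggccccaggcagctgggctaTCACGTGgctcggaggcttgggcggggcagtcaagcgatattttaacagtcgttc

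Of 20 genes of lipid uptake, storage and efflux, 4 were higher than in KCs in both libraries and 2 were lower, with medians of -0.03 and -0.04. The higher genes were Fabp3, Fabp4, Fabp5 and Pparg, the last a nuclear receptor for fatty acids (38.5 and 37.3 CPM, ratios 1.71 and 1.59). Fabp4 was at 195 and 209 CPM (2.73 and 2.80), with 63.1% of its UMIs in 1 DKO cell. The lower genes were Pltp, a phospholipid transfer protein (-1.45 and -1.28), and Rxra, a partner of nuclear receptors (-2.09 and -1.81). Abca1 and Abcg1, which export cholesterol, were at 224 and 155 CPM in YAPKO and 117 and 184 CPM in DKO, with ratios to KCs of -0.19 and -0.13 in YAPKO and -1.30 and -0.08 in DKO. Against KCs, Fabp3, Fabp4 and Fabp5 were therefore higher, and Abca1 and Abcg1 were not. Of the genes of TREM2 signalling, 2 of 13 were higher (Ms4a7, 3.40 and 2.55, and Ms4a4a, 3.81 and 3.41), 0 were lower, and the medians were -0.42 and -0.27. Tyrobp, the adaptor of TREM2, was at 4179.9 and 3753 CPM against 3974 and 4093 in KCs.

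KC identity genes were far lower in LAMs. Of 22 compared, which leaves out the 3 of the rule, 14 were lower in both libraries and 0 higher, with medians of -3.16 in YAPKO and -1.93 in DKO (-1.94 with genes at 0 set to their bound). Marco, a scavenger receptor, had 1 UMI in YAPKO LAMs and 2 in DKO LAMs, against 1328 and 802 CPM in KCs (ratios -10.94 (-16.24 to -8.46) and -7.33 (-10.38 to -5.48)). Cd163, the receptor of haemoglobin and haptoglobin, was at 8.79 CPM in YAPKO (-6.24) and at 0 in DKO, at least 42.4-fold lower. Cd5l, a secreted protein of tissue macrophages, was at 617 and 353 CPM against 5750.3 and 4829.7 (-3.22 and -3.77). It was uneven, with 10 or more UMIs in 15 of 86 YAPKO and 3 of 45 DKO cells.

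Further genes were among the 15 with the lowest ratios to KCs. The complement gene C6 (-6.64 and -5.88) and the lectin gene Fcna (-6.00 and -4.46) were detected in both libraries. So were the transporter gene Slc16a9 (-5.37 (-7.25 to -4.01) and -5.47 (-10.77 to -2.99)) and Epb41l3 (-4.41 (-5.54 to -3.48) and -4.63 (-7.68 to -2.77)). Pcolce2, Lepr, Slc45a3 and Kcnj16 were at 0 in both, which makes Pcolce2 at least 169-fold and 29.0-fold lower, Slc45a3 at least 26.2-fold and 6.47-fold, Kcnj16 at least 19.5-fold and 5.39-fold, and Lepr at least 12.5-fold and 9.15-fold. In YAPKO, Kcna2 (-4.56 (-6.19 to -3.33)), Dysf (-4.27 (-5.89 to -3.04)), Ptgis (-5.07 (-6.95 to -3.71)) and the chemokine Cxcl13 (-7.41 (-12.71 to -4.93)) were detected, and in DKO they were at 0, at least 9.23-fold, 5.57-fold, 5.0-fold and 5.04-fold lower. Gfra2 was at 0 in YAPKO, at least 23.6-fold lower, and had a ratio of -5.42 (-10.73 to -2.94) in DKO. Lower levels were thus not limited to the 3 KC genes that selected the cells. LAMs were chosen by low and KCs by high counts of those 3 genes, so that genes that vary with them are partly fixed. In DKO, the 85 Gpnmb-positive cells that failed that limit alone held Marco at 734 CPM and Cd5l at 3088 CPM. Of the 22 KC identity genes, 0 were at 0 in YAPKO LAMs and 3 in DKO LAMs. Hmox1, for example, was at 1319 and 595 CPM.

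Genes of monocytes were higher in LAMs than in KCs and lower than in the monocytes of the same library. Of 17 monocyte genes, 11 were higher than in KCs and 0 lower, with medians of 2.96 and 2.36 (2.34 in DKO at the bound). Against monocytes, 0 of 19 were higher and 13 were lower, with medians of -1.84 and -1.84 (-1.85 in DKO at the bound). Some of these genes also define the monocytes, so that their ratios to monocytes are partly fixed by the choice of cells. Ccr2, the receptor that brings monocytes into tissue, was at 166 and 169 CPM in LAMs, between 14.0 and 16.2 in KCs and 761 and 830.4 in monocytes. S100a6, a calcium-binding protein, lay between them in the same way, at 454 and 460.4 CPM in LAMs, 45.0 and 39.8 in KCs and 2095 and 1579 in monocytes. S100a4, another such protein, was at 155 and 159, 18.8 and 14.3, and 1044 and 830.4 CPM. By these 3 genes the LAMs lay between monocytes and KCs. Cx3cr1, the fractalkine receptor, was at 219 and 465 CPM in LAMs, 26.1 and 51.2 in KCs and 278 and 296 in monocytes, and in DKO it was thus highest in LAMs.

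**Figure D3:**
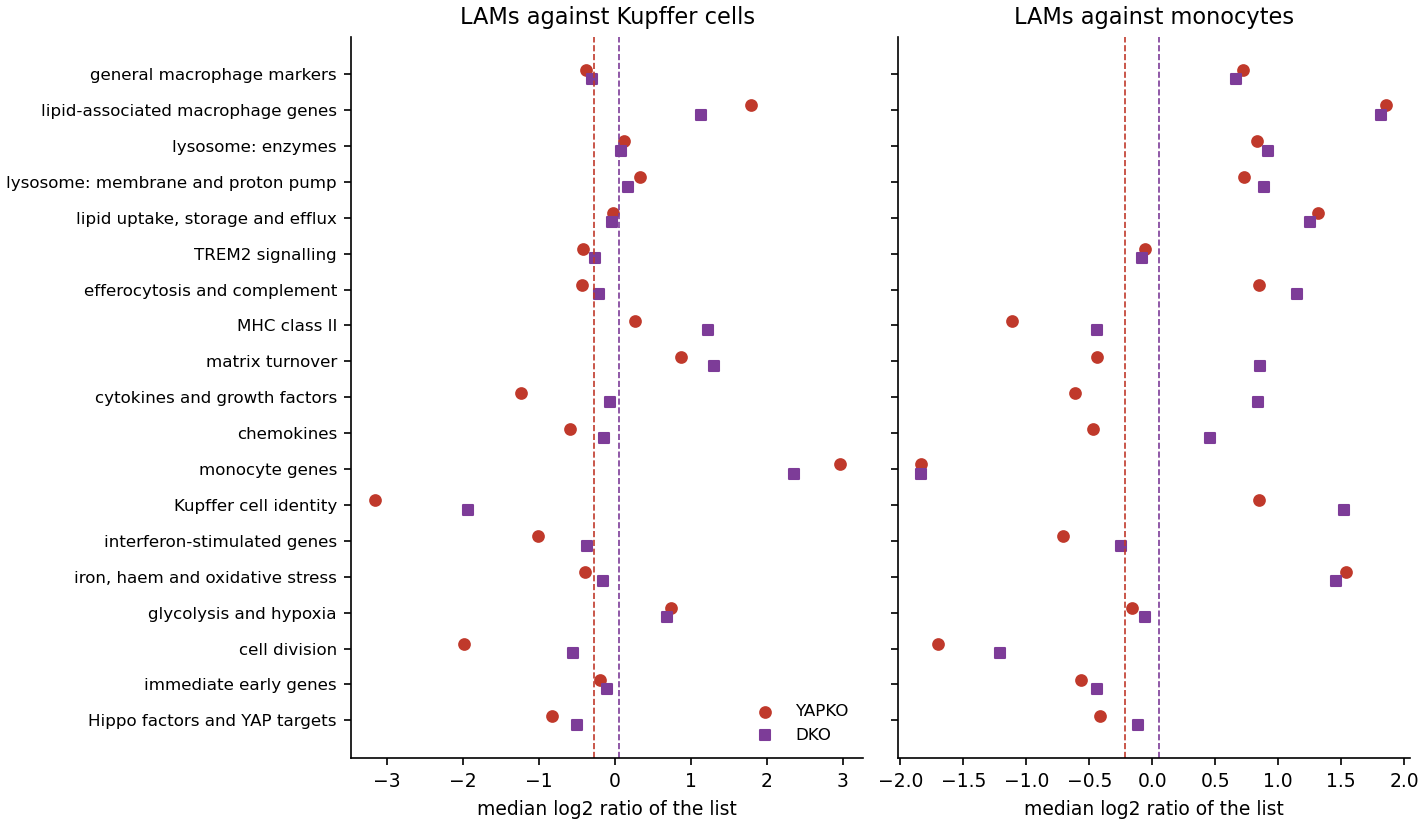
Median log2 ratio of LAMs to KCs (left) and to monocytes (right) for gene lists with at least 8 genes compared with KCs, without the markers of other cell types, in YAPKO and DKO, with dashed lines at the median of all compared genes. Among the lists shown, monocyte genes are highest and KC identity genes lowest against KCs, and LAM genes are highest and monocyte genes lowest against monocytes.

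Some antigen presentation genes were higher than in KCs. Of 11 genes of MHC class II and its partners, 4 were higher than in KCs (H2-Aa, H2-Ab1, H2-Eb1 and Ciita) and Cd86 was lower, with medians of 0.26 and 1.22. The ratio of H2-Ab1 in YAPKO was close to the limit of 2-fold, and without the cell with most of its UMIs it was 0.98. H2-Ab1 was at 3571 CPM in YAPKO and 6545 CPM in DKO, against 1751 and 2374 in KCs and 7114 and 7434 in monocytes. Ciita, the activator of these genes, was at 56.1 and 119 CPM (ratios to KCs 1.41 and 1.38). Cd86, a costimulatory ligand, was at 22.3 and 69.7 CPM against 209.7 and 171 in KCs. Against monocytes, 0 of 10 were higher and 1 was lower, H2-DMb2, with medians of -1.11 and -0.44. The part of dendritic cells among the monocytes in these ratios was not tested.

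Chemokines and cytokines did not move in 1 direction. Of 21 chemokine and receptor genes, 5 were higher than in KCs and 3 lower (medians -0.59 and -0.14, the latter 0.00 at the bound). Pf4, a chemokine of platelets and macrophages, was at 1480.5 and 433 CPM against 89.9 and 143, and Ccl9 at 189 and 129 against 38.1 and 33.6. The chemokine Ccl24 was lower (-3.19 and -1.48). Of 18 cytokines and growth factors, 2 were higher, among them the stress-induced Gdf15 (46.6 and 82.1 CPM, 1.06 and 2.06), and 5 were lower, among them Il18bp (-2.45 and -1.46) and Hbegf (-4.39 and -2.77). Their medians were -1.24 and -0.06 (-1.42 and -0.12 at the bound). Igf1, a growth factor, was at 536 CPM in YAPKO LAMs and 241 CPM in DKO LAMs, with ratios to KCs of -0.07 and -1.07.

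Of 15 matrix turnover genes, 6 were higher than in KCs and 0 lower (medians 0.87 and 1.30). Besides Spp1 these included Adam8 (82.5 and 29.9 CPM, 5.15 and 3.43), Mmp14, a membrane-bound collagenase (17.6 and 77.1 CPM, 2.12 and 3.26) and Thbs1 (2.99 and 5.45), together with Mmp8. Of 19 genes of efferocytosis and complement, Gas6 (2.53 and 1.13) and Cd93 were higher and 4 were lower: Marco, Cd163, Mrc1 (-1.79 and -1.65) and Mertk (-1.21 and -1.15). The medians were -0.44 and -0.22 (-0.30 in DKO at the bound). GAS6 is a ligand of MERTK, so that the ligand was higher and its receptor lower than in KCs. Of 9 genes of iron, haem and oxidative stress, 0 were higher and 2 lower, Cd163 and the iron exporter Slc40a1 (317 and 597 CPM, -2.92 and -2.16), with medians of -0.39 and -0.16 (-0.18 in DKO at the bound). Ferritin genes were at 21554 and 17000.3 CPM for Fth1 (1.43 and 0.94) and at 27353 and 15437 for Ftl1 (1.15 and 0.72).

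The comparison with monocytes asks how LAMs differ from a group chosen by genes of the cells they are commonly traced to. Of 6119 genes, 156 (2.55%) were at least 2-fold higher in LAMs in both libraries and 267 (4.36%) at least 2-fold lower, with medians over all genes of -0.21 and 0.05. Of 20 LAM genes, 14 were higher and 0 lower, with medians of 1.86 and 1.81. Higher genes were led by Syngr1 (3.83 (3.41 to 4.28) and 5.36 (3.89 to 7.31)), Fabp5 (3.55 and 3.92) and Gm6166 (3.70 and 5.11). Spp1 followed with 2.90 and 4.35, from 229 and 20.1 CPM in monocytes. Ctsd (2.88 and 2.86) and Cd63 (2.82 and 3.97) ranked with Pld3, a lysosomal nuclease (2.54 and 3.33), Vat1 (2.86 and 3.10), Pmp22 (2.96 and 4.11) and the inhibitory receptor Cd22 (2.94 and 3.57). Ctsd was thus higher than in monocytes in both libraries, while against KCs it was at least 2-fold higher in YAPKO but not in DKO.

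Many of the lipid genes compared with monocytes were higher in LAMs. Of 18 lipid genes, 10 were higher than in monocytes and 0 lower (medians 1.32 and 1.25). Plin2 had ratios of 1.95 and 1.27, Lpl 3.09 and 2.08 and Apoe 1.98 and 1.89. Of 8 iron genes, 6 were higher (medians 1.54 and 1.46), among them Hmox1, which degrades haem (2.35 and 1.61), and Fth1 (1.63 and 1.49). Of 16 genes of efferocytosis and complement, 7 were higher (medians 0.85 and 1.15), and of 16 of KC identity 6 were higher and 0 lower (0.84 and 1.52). LAMs therefore stood above monocytes in most of the compared lipid and iron genes.

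Genes lower than in monocytes included genes of dendritic cells and of circulating monocytes. Dendritic cells were not removed from the monocyte group, and their part in these ratios was not tested. Cd209a, a lectin of monocyte-derived dendritic cells, had 1 UMI in YAPKO LAMs (-8.55 (-13.86 to -6.07)) and 0 in DKO LAMs (at least 51.5-fold lower), against 253 and 385 CPM in monocytes. Ccl17, Klrd1 and Cd209d were at 0 in both libraries. Ccl17 was at least 11.7-fold and 10.6-fold lower, Klrd1 at least 12.7-fold and 6.70-fold, and Cd209d at least 4.63-fold and 6.01-fold. H2-Oa (-4.69 (-6.99 to -3.12) and -4.90 (-10.21 to -2.39)) and Mcemp1 (-4.10 (-5.17 to -3.21) and -4.44 (-7.50 to -2.57)) were detected in both. Mgl2 (-4.10), Cxcl10 (-5.59) and Ltb4r1 (-3.75) were lower in YAPKO and at 0 in DKO, at least 9.86-fold, 4.78-fold and 6.78-fold lower.

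LAMs varied from cell to cell within each library. Gpnmb ranged up to 84.4 UMIs per 10000 in YAPKO, with a median of 5.18 and quartiles of 1.69 and 12.4, and its median was 3.11 in DKO. A single Gpnmb UMI was found in 13 of 86 YAPKO and 12 of 45 DKO cells, and 10 or more in 39 and 9. Spp1 had a UMI in 54 of 86 YAPKO cells (62.8%) and 12 of 45 DKO cells (26.7%), or 32.6% and 20.5% after thinning to 2000 UMIs, against 0.794% and 1.31% of thinned B cells. At 10 or more UMIs, Spp1 was found in 25 and 4 cells. Cd9 showed the opposite order, with 39 of 86 cells in YAPKO (45.3%) and 32 of 45 in DKO (71.1%), or 23.3% and 43.2% after thinning, against 4.5% and 7.86% of thinned B cells.

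Several lysosomal genes were among those that followed Gpnmb most closely across the LAMs of a library. Spearman's rho between UMI shares was ranked for 1436 genes over 86 YAPKO and 45 DKO cells, which share a library and differ in depth, and it is given as a description. Genes were ranked by the smaller rho of the 2 libraries, and by this order the first was Fabp5 (rho 0.57 and 0.52), followed by Cd68 (0.47 and 0.57), Psap (0.49 and 0.45), the protease inhibitor Cstb (0.43 and 0.49), the lysosomal membrane gene Bri3 (0.41 and 0.55) and Lgals3 (0.45 and 0.41). Ctsd (0.58 and 0.41), Ctsb (0.48 and 0.37), Plin2 (0.47 and 0.32) and the proton pump gene Atp6v1a (0.44 and 0.30) were also among the 15 highest, as were genes of other functions: Capg, Cyba, Aldoa, Calm2 and Myof. Of these 15 genes, 4 of the 11 with a promoter in the table had the E-box (36.4%, against 4.29% of all genes). They were chosen by their ranks, and the share was not tested. The lowest ranks went to Ctsc, itself the gene of a lysosomal protease (-0.51 and -0.52), the inhibitory lectin Clec4a2 (-0.45 and -0.42), Cx3cr1 (-0.47 and -0.41) and the MHC class II genes H2-Eb1 (-0.40 and -0.51), H2-Ab1 (-0.38 and -0.50) and Cd74 (-0.35 and -0.50).

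Summed counts of the cells above the median Gpnmb share and of the rest give the size of these differences. They use the same cells and the same Gpnmb shares as the ranks and are no separate evidence. Cells above the median numbered 43 in YAPKO and 22 in DKO, with median depths of 16275 and 8307.5 UMIs, against 15150 in the other 43 and 7574 in the other 23. Fabp5 was at 5580.4 CPM above the median and 1209.7 CPM in the rest in YAPKO, and at 2967 and 623 in DKO. Spp1 was at 3057 and 274 CPM in YAPKO and at 658 and 185 in DKO. Ctsd was at 8868 and 4283 CPM in YAPKO and 3202 and 2077 in DKO. H2-Ab1 ran the other way, from 2434 above the median to 4783 in the rest in YAPKO, and from 4601 to 8315 in DKO. Ccr2 differed between the libraries, with log2 ratios of -1.51 in YAPKO and 0.39 in DKO. Markers of other cell types also differed between the 2 sides of the median. Several EC genes were higher above the median, with log2 ratios of 4.37 and 4.04 for Aqp1 and 3.08 and 2.40 for Ehd3. Of the EC genes of the rule, Ptprb was at 3.99 and 5.18 and Clec4g at 1.49 and 4.22. Not every EC gene was higher on that side. Fcgr2b, the most abundant EC marker, was at -0.40 (-0.68 to -0.13) in YAPKO and 0.35 in DKO. Pecam1, also from the rule, was at 1.67 and -0.52. Alb was lower (-3.74 and -1.31). Several of these ratios rested on single cells. Without the cell with most UMIs of each gene, Alb turned to 0.47 and 0.28, and the ratios were 2.42 and 2.85 for Aqp1, 2.42 and 4.16 for Ptprb, 0.96 and 0.53 for Ehd3 and 0.08 and 1.85 for Clec4g. They were 2.09 and 1.91 for Fabp5, 2.97 and 1.06 for Spp1, 0.98 and 0.72 for Ctsd and -1.15 and -1.03 for H2-Ab1. The part of EC or HC transcripts in these differences was not tested.

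**Figure D4:**
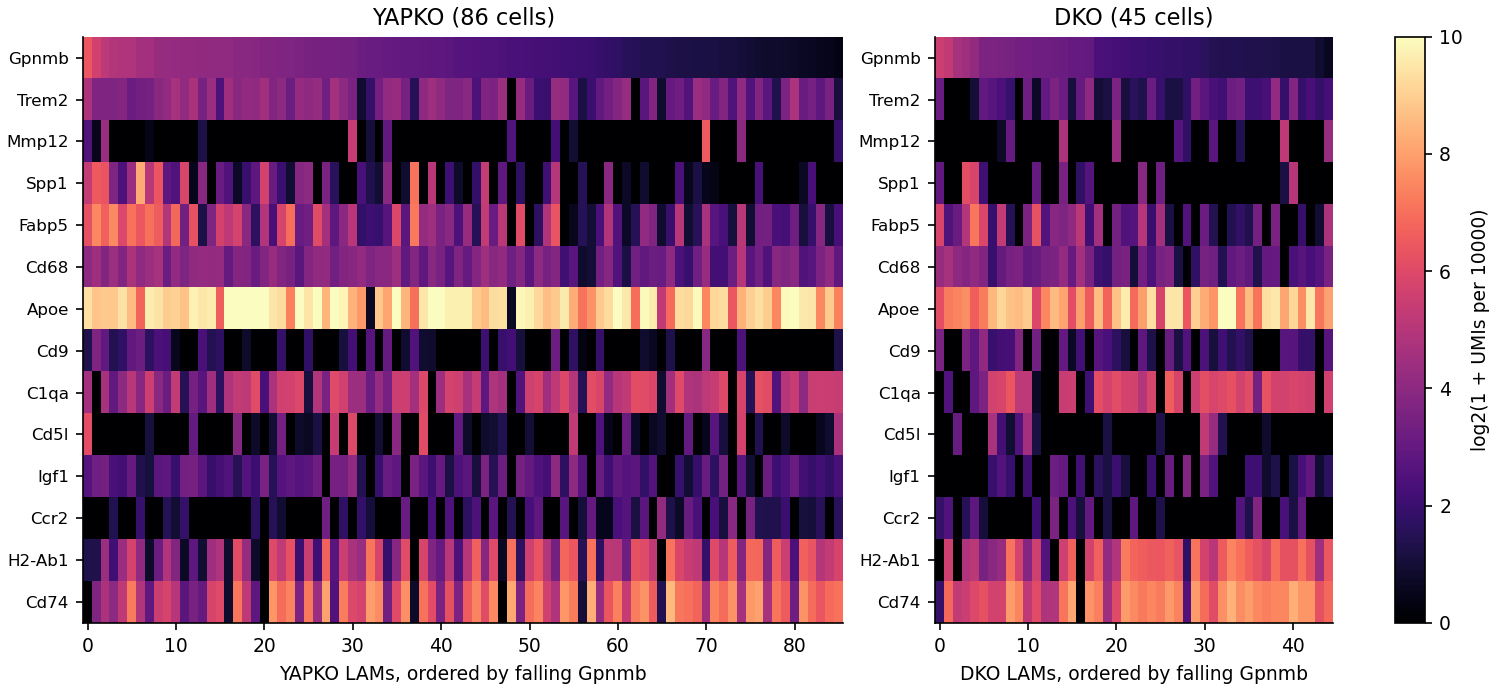
Levels of genes (log2 of 1 plus UMIs per 10000, colour) in each of the 86 YAPKO and 45 DKO LAMs, 1 column per cell, ordered by falling Gpnmb. Fabp5 and Spp1 are brighter on the left, and H2-Ab1 and Cd74 on the right.

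LAMs of DKO were then compared with LAMs of YAPKO, a comparison between 1 mouse and 1 mouse. Of 3297 genes, 201 (6.1%) were at least 2-fold higher in DKO and 86 (2.61%) at least 2-fold lower, with a median over all genes of 0.19. The balance depended on the count filter, and with at least 200 UMIs 22 genes were higher and 26 lower. In KCs, 13 of the 201 higher genes (6.47%, against 1.15% of all 3297) and 12 of the 86 lower genes (14.0%, against 0.94%) differed at least 2-fold in the same direction, and in monocytes 8 (3.98%, against 0.516%) and 25 (29.1%, against 1.82%). The sign was the same for 143 of the 201 in KCs and 158 in monocytes, where 48.6% and 46.6% of all 3297 genes were higher in DKO, and for 57 and 73 of the 86, where 51.4% and 53.4% of all were lower. Part of the difference between the 2 libraries was thus shared by other cells. Several genes of the LAM list were lower in DKO: 8 of 22 were lower and 1 (Itgax) higher, with a median of -0.58 in LAMs against 0.03 for the same genes in KCs and -0.56 in monocytes. The lower genes were Spp1 (-2.06 (-2.29 to -1.83)), Ctsl (-1.70), Plin2 (-1.53), Lpl (-1.40), Ctsd (-1.35), Syngr1 (-1.23), Cd36, a receptor of fatty acids and oxidised lipoproteins (-1.13), and Atp6v0d2. In monocytes Spp1 (-3.51), Syngr1 (-2.76) and Ctsd (-1.33) were also lower in DKO. Spp1 was lower in DKO KCs too (-2.10 with 1 added to each count). The lists of lysosomal enzymes (2 of 28 higher, 2 lower, median 0.00) and of lipid genes (2 of 19 higher, 3 lower, median 0.02) showed no common direction. Some MHC class II genes were on the other side, with 3 of 8 higher in DKO and 0 lower (median 0.90, against 0.39 in KCs and 0.06 in monocytes), among them H2-Eb1 (1.04) and Ciita (1.09). Of 6 EC markers, 4 were higher in DKO LAMs and 0 lower (median 1.35, against 0.41 in KCs). The median depth of DKO LAMs was also lower, 7581 against 15753.5 UMIs, and its part in the difference was not tested.

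The 10 genes with the largest ratios in favour of DKO included Il1b, Cd207 and Cxcl14. Il1b, the gene of interleukin-1β, was at 28.4 CPM (20.5 to 38.4) in YAPKO LAMs and 289 CPM (239 to 346) in DKO LAMs (3.35 (2.83 to 3.89)), while its ratio was 0.80 in KCs and 0.05 in monocytes. Cd207, the gene of langerin, was at 0 in YAPKO LAMs and 239 CPM in DKO LAMs, at least 118-fold higher, with 46.9% of its UMIs in 1 cell, and it also differed in KCs (39.9 and 535 CPM, 3.75). The chemokine Cxcl14 was at 18.3 and 159 CPM (3.13; 2.31 in monocytes), Cd81, a tetraspanin, at 119.7 and 649.5 (2.44), and the survival gene Bcl2a1a at 9.46 and 94.6 (3.32). Eng (2.65) and Klra2 (2.39) also ranked there. The other 3 rested almost wholly on single cells: a single DKO cell held 100% of the S100a9 UMIs, and single cells held 93.3% of those of S100a8 and 97.96% of those of Rspo3. Without the top cell of each gene the ratio turned to -1.27 for S100a9 (reported with 1 added to each count as 5.49), with 0 UMIs left in DKO and 8 in YAPKO, and was 0.48 for S100a8 and 0.92 for Rspo3.

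The 10 genes with the largest ratios in favour of YAPKO were at or near 0 in DKO LAMs. Ccl8 was at 126 CPM in YAPKO, with 46.0% of its UMIs in 1 cell, and at 0 in DKO, at least 16.9-fold lower, and it was lower in DKO monocytes too (-4.42). Atp6v0d2, at 109 CPM and 0, was at least 14.6-fold lower. Gm1966 (54.8 CPM and 0, at least 7.33-fold) and Trim12a (45.3 CPM and 0, at least 6.07-fold) were lower in DKO in other cells as well, with ratios of -8.53 and -4.99 in KCs and -6.99 and -4.30 in monocytes. Gm1673 (-2.95 (-4.85 to -1.56)), Gyg (-2.83 (-4.16 to -1.76)), Mthfsl (-2.89 (-4.79 to -1.49)), Cbr2 (-4.35 (-7.41 to -2.47)) and Lyz1 (-3.64 (-6.71 to -1.75)) were lower in LAMs. The last, Col3a1, had all its YAPKO UMIs in 1 cell, and without that cell it was at 0 in both libraries. Cbr2 was also lower in DKO KCs (-1.36) and monocytes (-3.70), so that Gm1966, Trim12a and Cbr2 differed in 1 direction between the mice in LAMs, KCs and monocytes.

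DKO held a further group of Gpnmb-positive cells that failed the rule through KC genes alone. It was noticed after the values were seen. The cells numbered 85 in DKO (1.02% of kept cells, 0.819 to 1.27, and 13.1 per 100 KCs), against 1 in WT, 3 in YAPKO and 1 in TAZKO. Their median depth was 11814 UMIs, against 10152 in DKO KCs and 7581 in DKO LAMs, and their Gpnmb counts had a median of 2 and a maximum of 30. KC genes were far above their level in LAMs, which for Clec4f, Vsig4 and Timd4 follows from the choice of the cells. Clec4f was at 2837 CPM (4522 in KCs, 22.4 in LAMs), Timd4 at 155 (357 and 2.49), Marco at 734 (802 and 4.98), Cd5l at 3088 (4829.7 and 353) and Cd163 at 56.5 (317 and 0), so that Marco was near its level in KCs and Timd4 and Cd163 were below theirs. Mmp12, which helped to select them, was at 1459 CPM against 196 in KCs and 336 in LAMs. Fabp5 was at 636 CPM (69.9 and 1739.6), Cd63 at 756 (116 and 1063) and Cd9 at 260.3 (62.7 and 348), each between KCs and LAMs. Ctsd at 4209.7 CPM (2106 and 2613) and Lpl at 898 (661 and 321) were above both, and Plin2 at 395 (267 and 353) was above KCs. Spp1 at 11.1 CPM (0.730 and 411), Cd93 at 22.2 (10.9 and 217) and Ccr2 at 8.34 (16.2 and 169) were nearer KCs. The part of droplets with a KC and a LAM together in this group was not tested.

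**Figure D5:**
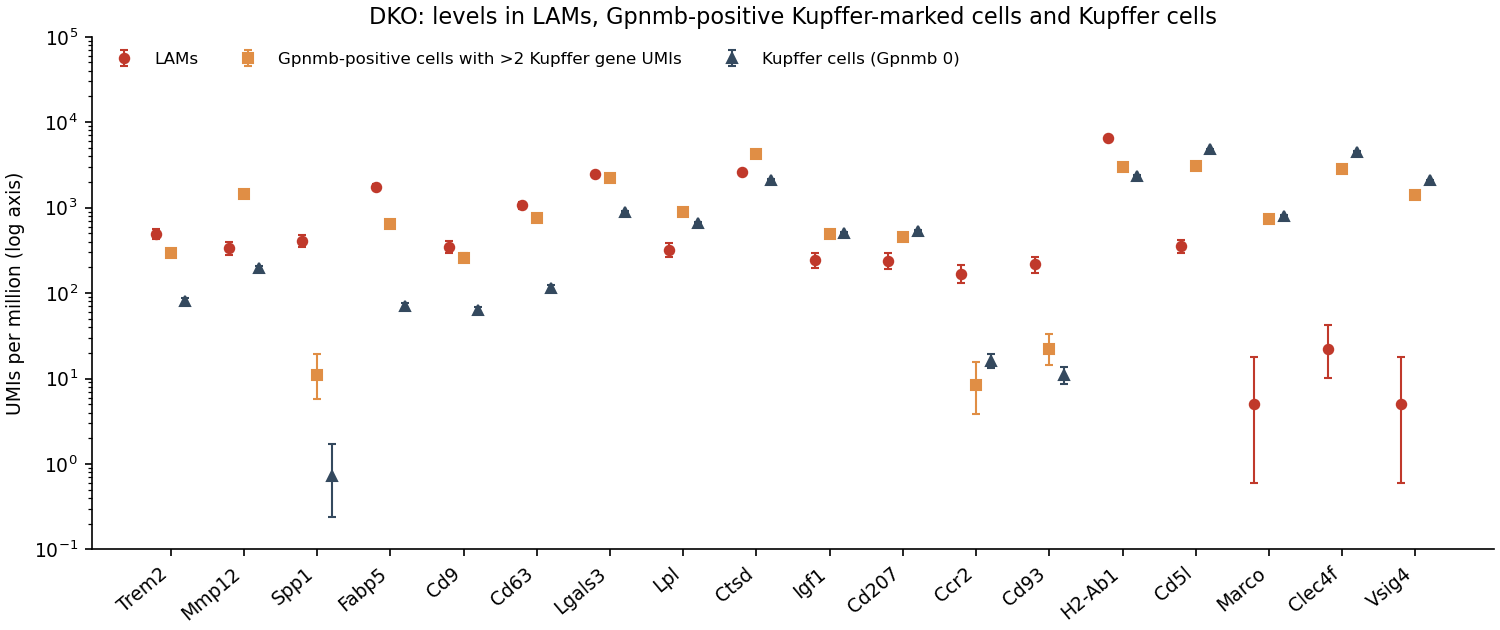
Levels (CPM, log axis, with exact 95% intervals for counting error) of selected genes in DKO LAMs, in the 85 DKO cells with Gpnmb that failed the KC gene limit alone and in DKO KCs. In the middle group Marco is near its level in KCs, Fabp5, Cd63 and Cd9 lie between, and Mmp12, Ctsd and Lpl are above both.

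Markers of other cell types were also counted in LAMs. The 10 hepatocyte markers summed to 4873 CPM in YAPKO, 52921 in TAZKO and 2628 in DKO, with Alb the most abundant in YAPKO and DKO, against 4804 in YAPKO KCs and 8191 in DKO KCs. A single cell held 87.8% of the Alb UMIs in YAPKO, 97.8% in TAZKO and 49.3% in DKO. The 10 neutrophil markers summed to 73.7, 56.8 and 612 CPM, with S100a9 the most abundant in DKO and Ly6g at 0 in YAPKO and DKO. The 12 EC markers, which leave out those of the rule, summed to 477, 1535 and 704 CPM, against 308 in YAPKO KCs and 404 in DKO KCs, and 2 of 11 were higher than in KCs in both libraries (Fcgr2b and Vwf) and 0 lower, with Fcgr2b, which macrophages also express, at 302 CPM in YAPKO and 231 in DKO. The 10 stellate cell and fibroblast markers summed to 141, 123 and 37.3 CPM, with Dcn most abundant, Pdgfrb at 0 in YAPKO and DKO and 81 of the 91 Dcn UMIs of YAPKO in 1 cell. The 10 T and NK cell markers summed to 7.44, 0 and 9.95 CPM (7 of 10 at 0 in YAPKO and 8 of 10 in DKO, Cd4 the most abundant), and the 8 B and plasma cell markers to 45.3, 37.9 and 62.2 CPM, with Cd79b the most abundant and Ms4a1 at 0 in YAPKO and DKO. The 8 biliary markers summed to 23.0, 189 and 12.4 CPM, with Krt8 the most abundant and Krt19 and Epcam at 0, and the 11 dendritic cell markers to 896, 284 and 622 CPM, of which Bst2, also an interferon-stimulated gene, made up 872 and 597 in YAPKO and DKO, while Xcr1 was at 0. What these transcripts contribute to the ratios was not tested beyond the values without the top cell and without possible doublets.

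The 7 TAZKO cells were too few for comparisons of genes and are given by their levels. Gpnmb had 186 UMIs in them. A single cell supplied 33.3% of the UMIs of all genes but only 7 of those of Gpnmb, and with 15.2% of its UMIs from HC markers it also met the limit set for HCs, as did 1 YAPKO LAM (12.9%) and 0 DKO LAMs. Fabp5 was at 805 CPM, Ctsd at 4746, Plin2 at 862, Spp1 at 85.3 and Marco at 0.

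These values rest on 1 mouse per genotype, so that genotype, animal and library cannot be told apart. LAMs were selected on Gpnmb, Trem2 and Mmp12, which limits what can be read from those genes, and a deeper cell passes such a rule more easily. The depth of LAMs differed between YAPKO and DKO. No program for calling doublets was run. Instead, the rule limited 3 KC genes, 6 EC genes and Siglech, Cd3e and Cd79a, which leaves room for doublets. Possible doublets, left out as another setting, were cells with more UMIs than the 95th percentile of the kept cells of their library. Cells with more than 1 UMI of the T and NK, B and plasma, neutrophil (without S100a8 and S100a9), stellate or biliary markers also counted. Leaving them out kept 41 of 86 LAMs in YAPKO and 29 of 45 in DKO. Of KCs it kept 388 of 613 and 473 of 647, and of monocytes 119 of 296 and 142 of 226. Ratios of genes with few UMIs, or with most UMIs in 1 cell, carry wide counting error or depend on that cell.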

How the data were processed

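The authors deposited 1 matrix of UMI counts per library, made by aligning reads to mm10 with Cell Ranger, and the values used here are these deposited counts without normalization. The version is given as 6.0.1 in the submitters' processing notes and as 4.0.0 in the headers of the matrices. Cells were grouped by the genotype of their library. LAMs were selected by the rule stated in the results. KCs and monocytes were selected by marker counts, monocytes with S100a8 and S100a9 under 1% of UMIs, both with 0 UMIs of Siglech, Cd3e and Cd79a and the 6 EC genes under 0.3%. B cells, used to gauge free RNA, held at least 2 UMIs of Cd79a and 1 of Cd79b. HCs were cells with at least 10% of UMIs from the HC marker list.

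UMIs were summed per gene, library and kind of cell and scaled to CPM. Genes with at least 50 UMIs over the compared groups were compared, and genes higher in HCs than in both groups were left out. For counts of genes and for list medians, 1 was added to each count. Ratios of named genes are of the counts themselves. Intervals are exact at 95%: Poisson for levels, conditional binomial for ratios and Clopper-Pearson for shares. A count of 0 was given a limit of 3 counts, per library. Shares of LAMs and B cells with a UMI were compared after thinning both to 2000 UMIs.

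For each direction, the genes named are the 15 ranked highest by the smaller ratio of YAPKO and DKO against KCs, the 10 against monocytes and the 10 in DKO against YAPKO, and in addition genes of the lists. Cells and lists were chosen with earlier results of these data known. Other settings covered the depth of cells, the limits of the rules, possible doublets, the total for scaling, the filter on low counts and the weight of cells, and 2 more, the added count and the single cell with most UMIs of a gene, were chosen after seeing the data. Promoters were read from GRCm38.p6 with RefSeq transcription starts. Python 3.11.15 with numpy 2.4.6, scipy 1.17.1, pandas 2.3.3 and matplotlib 3.10.9 was used. The 2-fold calls were tried on simulated counts with known changes, and the intervals were not. Some genes of the ranked lists and gene lists are not reported here.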

Additional observations from a re-analysis of the deposited data

Results flagged for a closer look

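Among genes of the lists with UMIs in both libraries, 4 had log2 ratios of LAMs to another kind of cell of opposite signs in YAPKO and DKO, at least 2-fold each way and with both intervals clear of 0, and a further 1 had them in 2 comparisons. Over all genes compared, with 1 added to each count and no limit on intervals, 5 of 7874 were at least 2-fold higher than in KCs in YAPKO and lower in DKO and 64 the reverse, and against monocytes 4 of 6119 and 23. None of these differences was tested, since each genotype had 1 library. Against KCs, the chemokine Ccl5 was 1.90 in YAPKO and -2.58 in DKO, a difference of -4.47, with 67.6% of its YAPKO UMIs in 1 cell. The fibroblast gene Dcn was 1.51 and -2.87, a difference of -4.39, with 81 of its 91 YAPKO UMIs in 1 cell. The neutrophil gene S100a9 was -2.57 and 2.80 against KCs, a difference of 5.37, and -1.70 and 7.17 against monocytes, a difference of 8.87, with 100% of its DKO UMIs in 1 cell. S100a8 against monocytes was -1.41 and 4.64, a difference of 6.05, with 93.3% of its DKO UMIs in 1 cell. Eng, a coreceptor of TGF-β, was -1.73 and 1.29 against monocytes, a difference of 3.02, with 41.2% of its DKO UMIs in 1 cell.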

How the results depend on the processing

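Of the main counts, shares and medians, 28 values moved beyond the range set for them under other settings, and of the ratios of named genes 102 moved, 5 changed sign and 929 did neither. The cause was not tested beyond the construction of each setting. Thinning cells to 2000 UMIs lowered the shares of LAMs to 0.701% in YAPKO and 0.186% in DKO, and to 7.09 and 2.31 per 100 KCs. Asking for 5 UMIs of Gpnmb, Trem2 and Mmp12 gave 0.386% and 4.95 per 100 KCs in DKO. With a filter of 20 UMIs, 403 genes were higher than in KCs, and in DKO against YAPKO 611 were higher and 159 lower. With a filter of 200 UMIs, 99 were higher than in KCs, 91 higher and 123 lower than in monocytes, and 22 higher and 26 lower in DKO. Without possible doublets 91 of 4479 genes (2.03%) were higher and 146 (3.26%) lower than in monocytes, of which 71 and 115 were among those reported, and 103 of 1773 (5.81%) were higher in DKO, of which 64 were among those reported. Without the top cell of each gene, 712 were lower than in KCs and 459 lower than in monocytes, and with the added count scaled to the totals 686 were lower than in KCs. The median of matrix genes against KCs was 2.13 in YAPKO with 20 UMIs and 0.52 in DKO with 200. That of monocyte genes in DKO was 3.22 without doublets, that of immediate early genes in DKO 0.48 without doublets. That of cell division genes was -2.91 in YAPKO without the top cell, and in DKO -1.15 without doublets, -1.98 with the scaled count and -1.35 without the top cell. S100a9 in DKO against YAPKO LAMs, reported as 5.49, turned to -1.27 with 5 UMIs, -1.29 without doublets and -1.27 without the top cell, and Col3a1, reported as -4.03, to 1.52 without doublets and 1.86 without the top cell. In both settings Col3a1 had 0 UMIs in both libraries, so that the last 2 values come from the added count and the totals alone and show no reversal, and S100a9 had 0 UMIs in DKO. The settings named last, the scaled count and the top cell, were chosen after seeing the data. No paired test was run. LAMs were compared with KCs and monocytes within the same library, whereas libraries of different genotypes share replicate 1 in number alone.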

Other observations

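Few genes of glycolysis and hypoxia differed at least 2-fold between LAMs and KCs, with medians of 0.73 in YAPKO and 0.68 in DKO (0.65 at the bound) over 14 genes, of which 1 (the lactate transporter Slc16a3) was at least 2-fold higher in both and 1 (Adm) lower. Gapdh was at 1327 and 1098 CPM against 713 and 627 in KCs, and Pkm at 375 and 346 against 193 and 205. Of 19 interferon-stimulated genes, 0 were higher and 3 lower (medians -1.02 and -0.37, the latter -0.38 at the bound), among them the transcription factor Irf7 (-1.27 and -1.28). Of 11 immediate early genes, Atf3 and Ier3 were higher and Klf2 lower (medians -0.20 and -0.11).

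Cell division genes were low in LAMs. Of 18, 0 were higher than in KCs and 8 lower, with medians of -1.98 and -0.55 (-0.46 in DKO at the bound), and of 17 compared with monocytes 11 were lower. Mki67 had a UMI in 8 of 86 YAPKO and 2 of 45 DKO LAMs. Of 10 Hippo factors and YAP targets compared with KCs, 0 were higher and Ccn1 was lower (medians -0.83 and -0.51, or -1.0 and -0.26 at the bound). Yap1 was at 1.35 CPM (0.164 to 4.88) in YAPKO and 2.49 CPM (0.0630 to 13.9) in DKO LAMs, from 2 and 1 UMIs, and Wwtr1 at 2.70 CPM (0.737 to 6.92) and 4.98 CPM (0.603 to 18.0), from 4 and 2 UMIs. Tead1, Tead2, Tead3 and Tead4, whose proteins bind YAP and TAZ to DNA, were at 0 in LAMs of both libraries. At this depth the levels of Yap1, Wwtr1 and the Tead genes in LAMs could not be compared between YAPKO and DKO.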
